A study of Mus musculus with 67 samples.

Results

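Integrin and laminin genes were followed across the aorta, heart, kidney and liver of 3 inbred mouse strains that differ in blood pressure. The members were all probe sets whose symbol in the array annotation begins with Itga, Itgb, Lama, Lamb or Lamc followed by a chain number or letter, and 54 probe sets of 36 genes, of 38385 probe sets on the array, met this rule. They comprised 6 leucocyte integrin genes, 18 integrin genes whose products bind matrix or matrix-associated ligands, 9 laminin genes, and 3 genes named after an integrin tail they bind (Itgb1bp1, Itgb1bp2 and Itgb3bp), which are not integrin chains. The rule does not take Itgam, the alpha M chain, and Itgb2, Itga10 and Lama3 were not analysed here.

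BPH/2J is the strain of high blood pressure, BPN/3J that of normal and BPL/1J that of low pressure, at 142 ± 5, 94 ± 6 and 69 ± 1.7 mmHg systolic per the series' design text, which does not state the kind of error. All were male and 12 weeks old, no group carried a transgene or received a treatment, and each strain is 1 inbred line, so strain and blood pressure cannot be told apart. RNA of each tissue was hybridised to single-colour custom Affymetrix mouse arrays, with 9 BPH, 5 BPN and 9 BPL arrays for the aorta (root to left renal artery), 5 of each strain for liver and likewise for heart, and for kidney 5, 5 and 4 in the same order of strains. The design text gives 5 mice a strain, and no label says which arrays share a mouse, so p-values measure only the spread between these arrays, which may in part be technical.

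Integrins are cell-surface receptors made of an alpha and a beta chain that tie the cytoskeleton to the extracellular matrix or to receptors on other cells. Laminins are trimers of an alpha, a beta and a gamma chain and form the sheet of the basement membrane around smooth muscle, heart muscle, tubules and endothelium, where integrins with a beta 1 chain bind them. Leucocyte integrins with a beta 2 or beta 7 chain serve adhesion to vessel walls and to other immune cells, and the alpha 4 chain binds both fibronectin and Vcam1 on endothelium.

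The 250 bases upstream of the annotated start are shown for the integrin chain, the laminin chain and the binding protein on which much of what follows rests. They are RefSeq sequences of build GRCm38.p6, printed 5′ to 3′ on the strand of the gene, and 24 of the 36 member genes matched a promoter in that table. The capitals mark matches to 4 motifs, each searched on both strands: a GC box, a CCAAT box, a TATA box and an AP-1 site. Among 32851 windows of the same length, 32.7% held the GC box GGGCGG, 33.8% the box CCAAT, 12.4% the TATA box TATAAA and 6.75% the AP-1 site TGANTCA, N being any base.
Itga4, chr2:79255176-79255425, plus strand: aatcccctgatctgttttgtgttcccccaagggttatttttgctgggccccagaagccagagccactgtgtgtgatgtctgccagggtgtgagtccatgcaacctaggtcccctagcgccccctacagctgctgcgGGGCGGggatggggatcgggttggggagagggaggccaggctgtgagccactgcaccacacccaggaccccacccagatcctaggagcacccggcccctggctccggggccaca
Lama5, chr2:180225860-180226109, minus strand: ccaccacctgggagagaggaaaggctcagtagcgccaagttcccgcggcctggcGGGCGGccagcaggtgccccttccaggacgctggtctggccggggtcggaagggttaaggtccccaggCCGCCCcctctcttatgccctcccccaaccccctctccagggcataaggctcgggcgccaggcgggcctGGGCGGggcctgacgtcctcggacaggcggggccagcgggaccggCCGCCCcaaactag
Itgb3bp, chr4:99829159-99829408, minus strand: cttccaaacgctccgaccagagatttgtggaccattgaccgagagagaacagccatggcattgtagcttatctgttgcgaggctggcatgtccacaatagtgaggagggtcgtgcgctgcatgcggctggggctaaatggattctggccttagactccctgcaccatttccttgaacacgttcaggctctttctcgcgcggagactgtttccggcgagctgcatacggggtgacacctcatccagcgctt
The Itga4 window held 1 GC box and the Lama5 window 4, while none of the 4 motifs was found in the Itgb3bp window. The genomes of the 3 strains were not compared over these windows.

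Intensities are given as log2 of the deposited values, and a level is compared only within 1 probe set and 1 tissue. Probe sets of 1 gene are called the first, the second and the third in order of their mean over the 4 tissues, and the first represents the gene unless another is named. A difference is given as BPH or BPL minus BPN, ± its standard error from limma, and was called where the p-value, Benjamini-Hochberg adjusted over all 38385 probe sets of that tissue, was below 0.05. Folds are left out where a strain's mean lay below the lower quartile of an array, which on the log2 scale was 2.67 to 2.76 on liver arrays, 3.49 to 3.64 on kidney arrays, 3.2 to 3.32 on heart arrays and 2.9 to 3.03 on aorta arrays. Itga2 was below it in every strain and tissue. Itgb8 was below it in all strains in liver, as were Itgad in kidney, Itgad, Itgb8 and Lama1 in heart, and Itgb6 and Itgb8 in aorta. In these tissue extracts fewer cells of a type and less RNA per cell cannot be told apart, nor can transcript level and a strain difference in the sequence under a probe.

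Tissue markers matched the labels, with smooth muscle markers averaging 12.19 to 12.65 in aorta and cardiomyocyte markers 13.94 to 14.02 in heart. The 1 proximal tubule marker measured read 12.52 to 12.79 in kidney, and the 2 hepatocyte markers measured averaged 12.5 to 12.73 in liver. A few arrays stood apart by chosen markers of another tissue, more than 1 above the median of their tissue. In aorta they were BPL 24, BPL 26 and BPN 11 for hepatocyte markers (4.035, 8.178 and 3.947, median 2.671) and BPH 5 for cardiomyocyte markers (8.817, median 6.239). In heart BPH 5 stood apart for T and B cell markers (6.13, median 4.678). In kidney BPL 1, BPN 4 and BPN 5 carried adrenal markers at 8.484, 8.425 and 9.023 (median 3.452). Only these pairs of tissue and marker list were screened, and they were picked after seeing the data. Hepatocyte markers in heart, not screened, reached 8.59 in BPH, 8.447 in BPL and 8.37 in BPN (group medians 7.318, 6.924 and 7.134). Skeletal muscle markers in aorta, not screened either, reached 6.839 in BPH and 7.003 in BPL (group medians 5.265 and 5.441). Also not screened were the 2 hepatocyte markers in kidney, which averaged 4.971 to 5.094 in BPN, 6.396 to 7.139 in BPH and 6.955 to 7.271 in BPL. In each outer strain 1 of the 2 was called higher than in BPN. Their part in the kidney differences of the members was not tested. Without the numbered arrays, called member probe sets numbered 12 in place of 15 in BPH aorta and 5 in place of 9 in BPL aorta. In kidney they numbered 4 in place of 6 for BPH and 3 in place of 4 for BPL. Besides calls noted below, Itga7 (adjusted p = 0.0804) and the third Itga9 probe set (0.0904) ended in BPH aorta. Itgax (0.109) and the second Itgb3 probe set (0.0627) ended in BPL aorta. In kidney, Lamb2 (0.0954) and Itgb5 (0.0745) ended in BPH and the second Lamb1 probe set (0.0655) in BPL. In BPH minus BPL, Lama4 in aorta (0.0546) and the second Lamc1 probe set in heart (0.059) ended.

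Against BPN, the members differed most often in the aorta and the liver of BPH. In BPH aorta 7 of 54 member probe sets were higher and 8 lower, while 4.45% and 4.7% of all probe sets on the array were, so that 27.8% of the members were called beside 9.15% of the array. In BPL aorta 2 were higher and 7 lower (5.14% and 5.2% of the array), 16.7% beside 10.3%. These counts take several probe sets of 1 gene apart. With 1 probe set a gene, 19.4% of the 36 genes were called in BPH aorta and 16.7% in BPL aorta. Over all named genes 11.5% and 12.9% were. In BPH liver 5 were higher and 7 lower (3.29% and 3.85% of the array), 22.2% beside 7.14%, and in BPL liver 5 were higher and 3 lower (3.77% and 3.7%), 14.8% beside 7.47%. In BPH heart 3 were higher and 1 lower (3.51% and 3.51% of the array), 7.41% beside 7.02%, and in BPL heart 4 were higher and 3 lower (4.14% and 5.2%), 13% beside 9.34%. In BPH kidney 3 were higher and 3 lower (3.66% and 3.39% of the array), 11.1% beside 7.05%, and in BPL kidney 2 were higher and 2 lower (3.22% and 3.02%), 7.41% beside 6.24%. The shares of heart for BPH and of kidney for BPL were thus near those of the array.

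BPH and BPL, the outer strains in blood pressure, were also set against each other. In BPH minus BPL, 6 member probe sets were higher and 3 lower in aorta (5.67% and 5.36% of the array), 16.7% beside 11%. With 1 probe set a gene, 3 genes were higher and 1 lower there, 11.1% beside 13% of all named genes, so that no excess remained. In liver 3 were higher and 3 lower (2.68% and 3.09% of the array), 11.1% beside 5.77%. In kidney 2 were higher and 2 lower (3.14% and 3.19% of the array), 7.41% beside 6.33%. In heart 3 were higher and 3 lower (4.59% and 3.97% of the array), 11.1% beside 8.57%. The median difference of the 54 member probe sets lay between -0.0782 and 0.0458 in all 12 comparisons. There was therefore no common shift of the members in one direction.

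**Figure D1:**
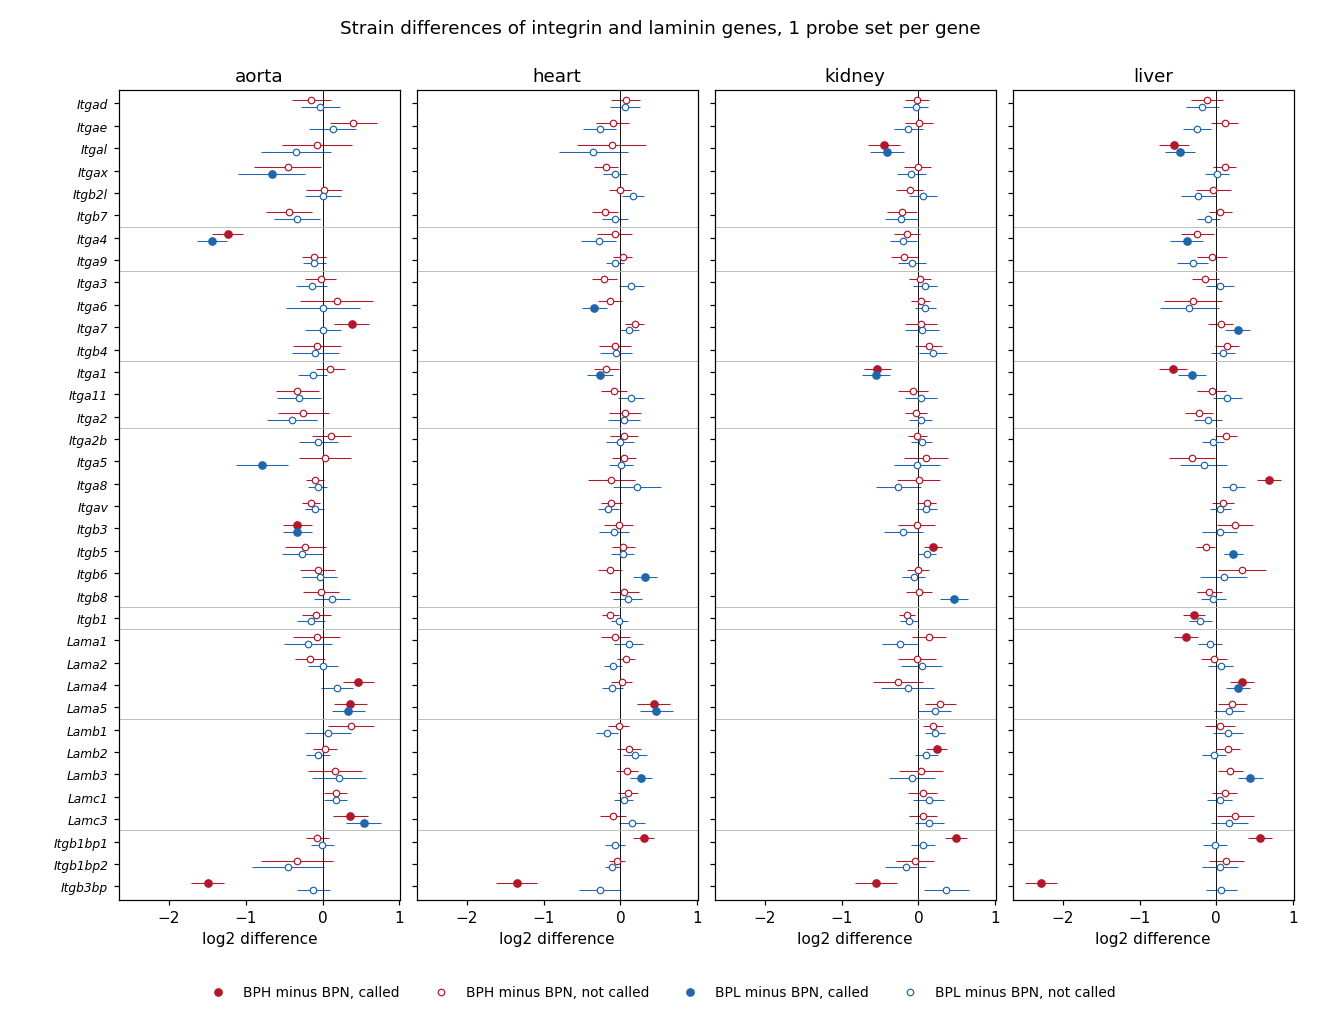
Log2 difference from BPN (x axis) of the representative probe set of each of the 36 genes (y axis) in 4 tissues, BPH in red and BPL in blue. Points are limma estimates, bars their 95% intervals and filled points are called; Itgb3bp in BPH lies farthest left in liver, at -2.28, and in aorta Itgb3bp in BPH lies at -1.5 and Itga4 at -1.24 in BPH and -1.44 in BPL.

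With 1 probe set a gene, leucocyte integrins and matrix-binding integrins were counted apart. Of the 18 matrix-binding integrin genes, 1 was higher and 2 lower in BPH aorta and 3 were lower in BPL aorta, against 11.5% and 12.9% of all named genes called in those comparisons. Of the 6 leucocyte integrin genes, none was called in BPH aorta, where 3 had an unadjusted p below 0.05, and 1 was lower in BPL aorta. In heart none of the 6 was called in either strain (2 below an unadjusted 0.05 in each), while 1 matrix-binding gene was higher and 2 lower in BPL and none was called in BPH (4 below an unadjusted 0.05). In kidney 1 leucocyte integrin gene was lower in each strain and 1 matrix-binding gene was higher and 1 lower in each. In liver 1 leucocyte integrin gene was lower in each strain, beside 1 higher and 2 lower matrix-binding genes in BPH and 2 higher and 2 lower in BPL. Over all named genes the called shares were 9.14% and 9.45% in liver for BPH and BPL, 8.62% and 7.71% in kidney and 8.45% and 11.3% in heart. In BPH minus BPL the matrix-binding genes called were 2 higher in aorta, 2 lower in heart, 1 lower in kidney and 1 higher and 1 lower in liver, and the only leucocyte gene called was 1 higher in liver (1 below an unadjusted 0.05 in aorta, 1 in heart and 0 in kidney). All named genes were called there at 13% for aorta, 10.3% for heart, 7.88% for kidney and 7.42% for liver. With Itga4, which lymphocytes also carry, counted among the leucocyte genes, these had 1 lower in BPH aorta, 2 lower in BPL aorta and 2 lower in BPL liver, of 7, and the matrix-binding genes 1 higher and 1 lower in BPH aorta, 2 lower in BPL aorta and 2 higher and 1 lower in BPL liver, of 17. Whether the leucocyte and the matrix-binding genes differed from each other was not tested.

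Among the laminin alpha chains, which carry the integrin-binding end of the trimer, Lama4 and Lama5 were higher in the BPH aorta. Lama4, the chain of endothelial and muscle laminins, had a lowest, median and highest level of 11.07, 11.35 and 11.43 over the 9 BPH arrays and of 10.71, 10.97 and 11.29 over the 9 BPL arrays, and read 10.60, 10.61, 10.82, 10.98 and 11.05 on the BPN arrays. Every BPH array was above every BPN array, while BPL overlapped both. The difference was 0.47 ± 0.099 in BPH (1.38-fold, adjusted p = 0.0022) and BPH was also above BPL, by 0.28 ± 0.084 (adjusted p = 0.0313), a call that 9 of the 23 arrays ended when left out (up to 0.069). Lama5, the most widespread alpha chain of adult vessels, reached 9.90, 10.11 and 10.35 in BPH and 9.84, 10.05 and 10.36 in BPL as lowest, median and highest, and 9.47, 9.69, 9.75, 9.92 and 9.96 in BPN. Both strains overlapped BPN at the edge, and the differences were 0.36 ± 0.10 in BPH (adjusted p = 0.0257) and 0.34 ± 0.10 in BPL (adjusted p = 0.0366). Leaving out BPN 11, BPN 12 or BPN 15 ended the BPH call (adjusted p = 0.107, 0.0574 and 0.0622) and 7 of 23 arrays ended the BPL call (up to 0.141). Without the 4 aorta arrays with markers of another tissue the adjusted p-values were 0.0793 and 0.0985.

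Lama5 was higher in the heart of both strains as well. BPH hearts read 6.71, 6.95, 7.17, 7.19 and 7.27, BPL hearts 6.91, 6.97, 7.02, 7.23 and 7.33, and BPN hearts 6.47, 6.60, 6.68, 6.68 and 6.70. All 10 arrays of the outer strains lay above the 5 of BPN, with differences of 0.43 ± 0.10 in BPH (1.35-fold, adjusted p = 0.013) and 0.47 ± 0.10 in BPL (1.38-fold, adjusted p = 0.00632). In kidney the Lama5 differences of 0.28 and 0.21 were not called (adjusted p = 0.0916 and 0.281).

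In liver Lama4 and Lama1 moved in opposite directions. Lama4 read 4.79, 4.90, 5.05, 5.07 and 5.14 in BPH, 4.54, 4.58, 4.64, 4.73 and 4.75 in BPN and 4.87, 4.88, 4.90, 4.98 and 5.03 in BPL, so that BPN was the lowest strain without overlap. The differences were 0.34 ± 0.074 in BPH (adjusted p = 0.00653) and 0.28 ± 0.074 in BPL (adjusted p = 0.0233). Leaving out BPL 2, BPL 4, BPN 2 or BPN 4 ended the BPL call (adjusted p = 0.0656, 0.0557, 0.0589 and 0.0667). In a joint fit with 1 spread shared by all 12 groups of tissue and strain, the adjusted p-values were 0.0545 and 0.15.

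Lama1, the alpha chain of the first laminin described and of some epithelia, was low in all livers and lowest in BPH, at 3.46, 3.52, 3.57, 3.60 and 3.64 against 3.77, 3.92, 3.92, 4.03 and 4.11 in BPN and 3.72, 3.75, 3.91, 3.97 and 4.0 in BPL. BPH was below BPN by 0.39 ± 0.076 on the log2 scale (1.31-fold, adjusted p = 0.00236) and below BPL by 0.31 ± 0.076 (adjusted p = 0.0157), without overlap in either case. Leaving out BPL 2 ended the second of these calls (adjusted p = 0.0511), and the shared spread ended both (adjusted p = 0.052 and 0.215). In kidney Lama1 read 6.32, 6.56, 6.60, 6.72 and 6.80 in BPH and 6.00, 6.18, 6.26 and 6.43 in BPL. That difference of 0.38 ± 0.11 passed narrowly (adjusted p = 0.0473) and 10 of 14 arrays ended it when left out (up to 0.143), as did the shared spread (0.112). Lama2, the alpha chain of muscle and nerve basement membranes, was not called by any of its 3 probe sets in any tissue. Its first probe set differed from BPN in BPH and BPL by -0.03 and 0.06 in liver, by -0.02 and 0.04 in kidney, by 0.08 and -0.10 in heart and by -0.17 and 0.01 in aorta.

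Of the gamma chains, Lamc1, which most laminins contain, rose in BPH aorta by 2 of its 3 probe sets. The second probe set ran from 9.08 through a median of 10.01 to 10.69 in BPH and from 9.06 through 9.67 to 9.99 in BPL, beside 8.49, 8.96, 9.04, 9.35 and 9.39 in BPN. The third ran from 9.04 through 9.24 to 9.52 in BPH and from 8.42 through 8.75 to 8.97 in BPL, beside 8.47, 8.48, 8.50, 8.53 and 8.67 in BPN. On the third probe set all BPH arrays were above all arrays of both other strains, while on the second they overlapped. BPH was higher than BPN by 0.96 ± 0.21 on the second (1.94-fold, adjusted p = 0.00298) and by 0.72 ± 0.093 on the third (1.65-fold, adjusted p = 3.98e-06), and higher than BPL on the third by 0.52 ± 0.079 (1.44-fold, adjusted p = 2.82e-05). BPL minus BPN was 0.55 ± 0.21 and 0.20 on these probe sets and not called (adjusted p = 0.107 and 0.212). The first and brightest probe set gave 0.17 ± 0.073 in BPH and 0.17 in BPL (adjusted p = 0.156 and 0.16), with BPH at 10.59, 10.80 and 11.09 as lowest, median and highest and BPN from 10.52 to 10.70. The 3 probe sets therefore gave the same sign and unequal sizes, and why was not tested. In heart the second probe set read 8.88, 8.93, 8.99, 8.99 and 8.99 in BPH and 8.59, 8.69, 8.69, 8.82 and 8.86 in BPL, a difference of 0.23 ± 0.061 (adjusted p = 0.0264) that 6 of 15 arrays ended when left out (up to 0.0776), as did the shared spread (0.792).

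Lamc3, a gamma chain of restricted distribution, was highest in the BPL aorta. Its lowest, median and highest values were 8.70, 8.96 and 9.40 in BPL and 8.56, 8.78 and 9.08 in BPH, and BPN read 8.22, 8.41, 8.44, 8.56 and 8.61. All BPL arrays exceeded all BPN arrays, with a difference of 0.53 ± 0.11 (1.45-fold, adjusted p = 0.00169). BPH overlapped BPN, with 0.36 ± 0.11 (adjusted p = 0.0419), a call lost with the omission of any of 10 of the 23 arrays (up to 0.131).

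Of the beta chains, Lamb3, a chain of epithelial anchoring laminin, was higher in BPL in liver and heart. Livers read 4.07, 4.12, 4.14, 4.20 and 4.35 in BPL, 3.61, 3.67, 3.74, 3.74 and 3.91 in BPN and 3.73, 3.90, 3.93, 3.96 and 4.06 in BPH. BPL stood above BPN without overlap, by 0.44 ± 0.077 (1.36-fold, adjusted p = 0.000837, and 0.0511 with the spread shared by 12 groups). In heart BPL read 7.05, 7.07, 7.16, 7.27 and 7.38 and BPN 6.81, 6.82, 6.97, 6.98 and 7.04, a difference of 0.26 ± 0.068 (adjusted p = 0.0193). That call ended without BPL 3, BPN 3 or BPN 5 (adjusted p = 0.0545, 0.0551 and 0.0555) and with the shared spread (adjusted p = 0.484). Lamb1 and Lamb2, the usual partners of Lamc1, were called only in kidney and narrowly. Lamb2 was higher in BPH by 0.24 ± 0.064 (7.10, 7.11, 7.12, 7.21 and 7.26 against 6.86, 6.91, 6.92, 6.96 and 6.97 in BPN, adjusted p = 0.0325), and 6 of 14 arrays ended the call (up to 0.079). The second Lamb1 probe set was higher in BPL by 0.27 ± 0.074 (7.59, 7.62, 7.71 and 7.72 against 7.16, 7.37, 7.40, 7.45 and 7.59, adjusted p = 0.0426), and 12 of 14 arrays ended it (up to 0.118), as did the shared spread (0.24). On the first Lamb1 probe set the kidney differences were 0.19 and 0.22 and were not called.

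The laminin-binding integrin chains differed in aorta and heart. Itga7, the laminin receptor chain of muscle, read 9.26, 9.57 and 9.96 as lowest, median and highest in BPH aorta and 8.87, 9.24 and 9.51 in BPL, against 9.07, 9.09, 9.23, 9.23 and 9.24 in BPN. BPH lay above BPN without overlap by 0.38 ± 0.11 (adjusted p = 0.032), a call that 7 of 23 arrays ended when left out (up to 0.0863), and above BPL by 0.37 ± 0.095 (adjusted p = 0.00896). In liver Itga7 was higher in BPL (4.88, 4.90, 4.93, 4.94 and 5.01) than in BPN (4.45, 4.56, 4.68, 4.75 and 4.84) by 0.28 ± 0.077 (adjusted p = 0.0304). BPL 1, 2 and 4 and BPN 1 and 3 each ended that call when left out (up to 0.0813), as did the shared spread (0.0859). Itga6, the laminin receptor chain of epithelia, endothelium and heart, was lower in BPL heart by both probe sets. On the second probe set BPL hearts read 8.42, 8.52, 8.54, 8.66 and 8.70, BPN hearts 8.84, 8.96, 8.98, 9.0 and 9.01 and BPH hearts 8.91, 8.93, 8.98, 8.99 and 9.02. BPL lay below both other strains without overlap, by 0.39 ± 0.060 against BPN on the log2 scale (1.31-fold, adjusted p = 0.000261) and by 0.40 ± 0.060 against BPH (adjusted p = 0.000187).

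The first Itga6 probe set showed the same order of BPL and BPN in heart. It read 8.20, 8.28, 8.31, 8.57 and 8.58 in BPL and 8.55, 8.76, 8.77, 8.78 and 8.79 in BPN, a fall of 0.34 ± 0.076 in BPL (adjusted p = 0.007). On this probe set BPH minus BPN was -0.14 and BPH minus BPL 0.20, neither of them called. With the spread shared by 12 groups neither Itga6 probe set was called in BPL minus BPN (adjusted p = 0.519 for the first and 0.247 for the second), nor was the second in BPH minus BPL (adjusted p = 0.23). In aorta the second probe set was higher in BPH (6.08, 6.71 and 7.63 as lowest, median and highest) than in BPL (5.78, 6.10 and 6.56) by 0.59 ± 0.18 (adjusted p = 0.0397). Leaving out 12 of the 23 arrays, 1 at a time, ended this call (up to 0.0815). The first Itga6 probe set gave 0.18 there and was not called. Itga3, a laminin receptor chain of epithelia, was lower in BPH heart (5.65, 5.78, 5.84, 6.04 and 6.11) than in BPL heart (6.15, 6.18, 6.20, 6.26 and 6.40), without overlap, by 0.35 ± 0.078 (adjusted p = 0.00623). In the same comparison of hearts 4 of 5 adipocyte markers (median -1.67) and 3 of 5 smooth muscle markers (median -0.526) were lower in BPH. The adipocyte markers averaged 4.041 to 6.431 in BPH and 5.086 to 7.77 in BPL hearts and the smooth muscle markers 6.472 to 6.714 and 6.919 to 7.385, and their part in the heart differences of Itga3, Itga6 and Itgb6 between BPH and BPL was not tested. Itgb4, the partner of Itga6 in hemidesmosomes, was not called in any comparison.

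Itga1, the alpha chain of a collagen and laminin receptor with beta 1, was lower by its first probe set in kidney and liver of both outer strains. BPN kidneys read 8.04, 8.16, 8.25, 8.31 and 8.40, BPH kidneys 7.57, 7.58, 7.73, 7.78 and 7.83, and BPL kidneys 7.50, 7.68, 7.71 and 7.83. All 9 arrays of the outer strains lay below the 5 of BPN, with falls of 0.54 ± 0.083 in BPH (1.45-fold, adjusted p = 0.000423) and 0.55 ± 0.088 in BPL (1.46-fold, adjusted p = 0.000614). BPN livers read 5.89, 6.01, 6.08, 6.11 and 6.26, BPH livers 5.29, 5.44, 5.50, 5.53 and 5.76, and BPL livers 5.59, 5.76, 5.76, 5.76 and 5.91. BPH was lower without overlap, by 0.57 ± 0.088 (1.48-fold, adjusted p = 0.000287), while BPL overlapped BPN at 1 array and was lower by 0.31 ± 0.088 (adjusted p = 0.0335), a call ended by 7 of 15 arrays (up to 0.0969).

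The second Itga1 probe set did not follow the first. In kidney its differences were 0.12 in BPH and 0.38 in BPL and were not called. In liver it was higher in BPH (5.09, 5.10, 5.20, 5.31 and 5.38) than in BPN (4.46, 4.75, 4.90, 4.99 and 5.12), by 0.37 ± 0.10 (adjusted p = 0.0334, ended by 6 of 15 arrays, up to 0.0899, and by the shared spread, 0.142). In heart it was higher in both strains, BPN reading 5.63, 5.71, 6.01, 6.03 and 6.06, BPH 6.30 to 6.51 and BPL 6.27 to 6.67. BPN overlapped neither of the other strains, and the differences were 0.54 ± 0.094 in BPH (adjusted p = 0.00102) and 0.53 ± 0.094 in BPL (adjusted p = 0.00101). The first probe set in the same hearts was lower in BPL, by 0.27 ± 0.078 (6.90, 6.94, 6.95, 6.98 and 7.20 against 7.17, 7.19, 7.23, 7.25 and 7.46, adjusted p = 0.0376, ended by 7 of 15 arrays, up to 0.104, and by the shared spread, 0.0837). In aorta the second probe set was higher in BPH, at 6.83, 7.05 and 7.70 as lowest, median and highest against 5.91, 6.00, 6.56, 6.57 and 6.59 in BPN, by 0.81 ± 0.16 (1.75-fold, adjusted p = 0.000782). The first gave 0.10 ± 0.092 there (adjusted p = 0.618). No single direction can therefore be given for Itga1 as a gene, and which transcripts each probe set reads was not tested. Itga2 and Itga11, the other collagen receptor chains, were not called in any comparison.

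**Figure D2:**
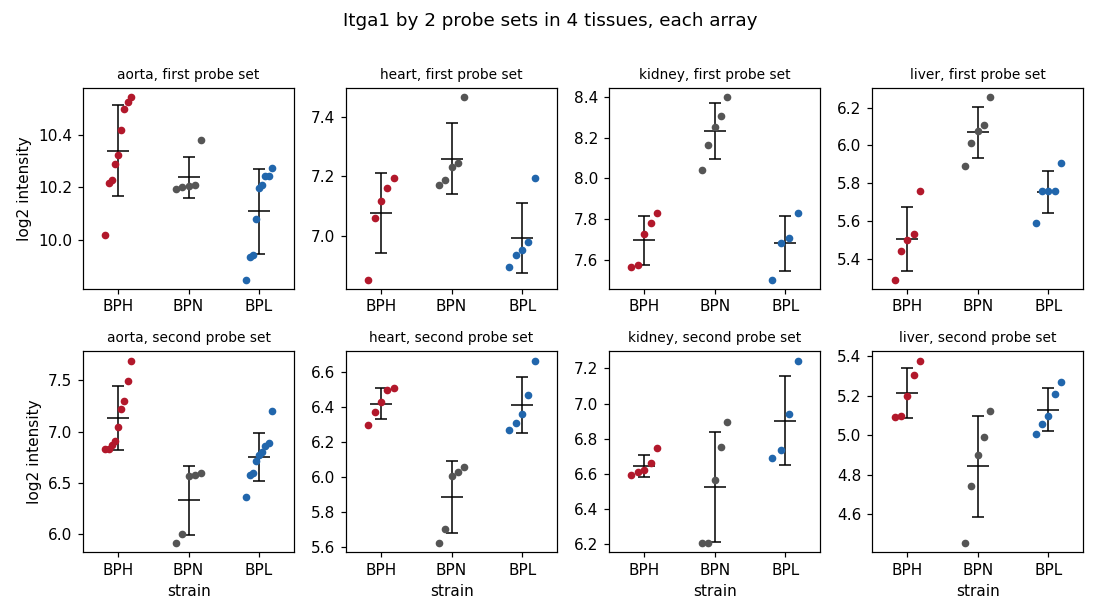
Log2 intensity of Itga1 on each array (y axis) by strain (x axis) in 4 tissues, first probe set in the upper row and second in the lower; points are arrays, the line and bars mean ± SD. On the first probe set BPN is highest in kidney (8.04 to 8.40) and liver (5.89 to 6.26), and on the second BPN is lowest in heart (5.63 to 6.06).

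Itga4 was the integrin chain with the largest difference in aorta. On its first probe set BPN aortas read 9.85, 9.93, 10.10 and 10.14 on 4 arrays, with the fifth between them, while the 9 BPH aortas ran from 8.48 through a median of 8.78 to 9.05 and the 9 BPL aortas from 8.31 through 8.55 to 8.82. All 18 arrays of the outer strains lay below all 5 of BPN. The fall was 1.24 ± 0.097 in BPH (2.36-fold, adjusted p = 8.28e-10) and 1.44 ± 0.097 in BPL (2.71-fold, adjusted p = 4.2e-11), and leaving out any 1 array left adjusted p-values of at most 1.3e-08 and 7.43e-10.

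The dimmer Itga4 probe sets were lower in the same strains, by less. The second read 5.76, 5.93, 6.18, 6.21 and 6.57 in BPN, 4.81, 5.31 and 5.52 as lowest, median and highest in BPH and 4.87, 5.76 and 6.40 in BPL. Only BPH was free of overlap with BPN on it, with a fall of 0.92 ± 0.18 (adjusted p = 0.000961), while BPL fell short of a call at -0.43 ± 0.18 (adjusted p = 0.15). BPH was also below BPL on it, by 0.49 ± 0.15 (adjusted p = 0.0383, ended by 10 of 23 arrays, up to 0.0784). The third read 3.93, 4.53, 4.73, 4.80 and 4.99 in BPN, 3.62 to 4.52 in BPH and 3.53 to 4.28 in BPL, so that 1 BPN array lay within the other strains. Its falls were 0.55 ± 0.16 in BPH (adjusted p = 0.0264) and 0.67 ± 0.16 in BPL (adjusted p = 0.00577). BPN 11, BPN 13 and BPN 15 each ended the BPH call when left out (adjusted p = 0.104, 0.0766 and 0.0775), and without the arrays with markers of another tissue the values were 0.173 and 0.0754.

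Outside the aorta the first Itga4 probe set was called only in BPL liver, at levels near the lower quartile. BPL livers read 2.39, 2.64, 2.69, 2.79 and 2.95 and BPN livers 2.78, 2.96, 3.17, 3.19 and 3.27, a fall of 0.38 ± 0.10 (adjusted p = 0.0261). BPL 1 and 5 and BPN 2, 4 and 5 each ended this call when left out (adjusted p from 0.0602 to 0.0786). The differences elsewhere were -0.08 and -0.29 in heart and -0.15 and -0.19 in kidney for BPH and BPL, and -0.25 in BPH liver. Lymphocytes carry the alpha 4 chain, and 5 of 7 T and B cell markers were lower in BPH aorta and 0 of 7 in BPL aorta. The mean of these markers ran from 4.177 to 5.718 in BPH, 5.108 to 6.238 in BPN and 5.085 to 5.725 in BPL, and the median marker difference was -0.74 in BPH and -0.473 in BPL. Their part in the Itga4 differences was not tested. None of the 6 genes nearest to Itga4 in the RefSeq order was called in BPH aorta, where 11.5% of all named genes were. Their values in BPL aorta are not given here, and the part of the region in the Itga4 differences was not tested. Itga9, the related chain that binds tenascin-C and Vcam1, was lower in BPH aorta only on the third of its probe sets, which read 9.27, 9.79 and 9.92 in BPH and 9.85, 9.94, 10.06, 10.14 and 10.17 in BPN. That difference of -0.31 ± 0.098 (adjusted p = 0.0463) was ended by 14 of 23 arrays (up to 0.135), and the first probe set gave -0.11 ± 0.074 (adjusted p = 0.45).

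**Figure D3:**
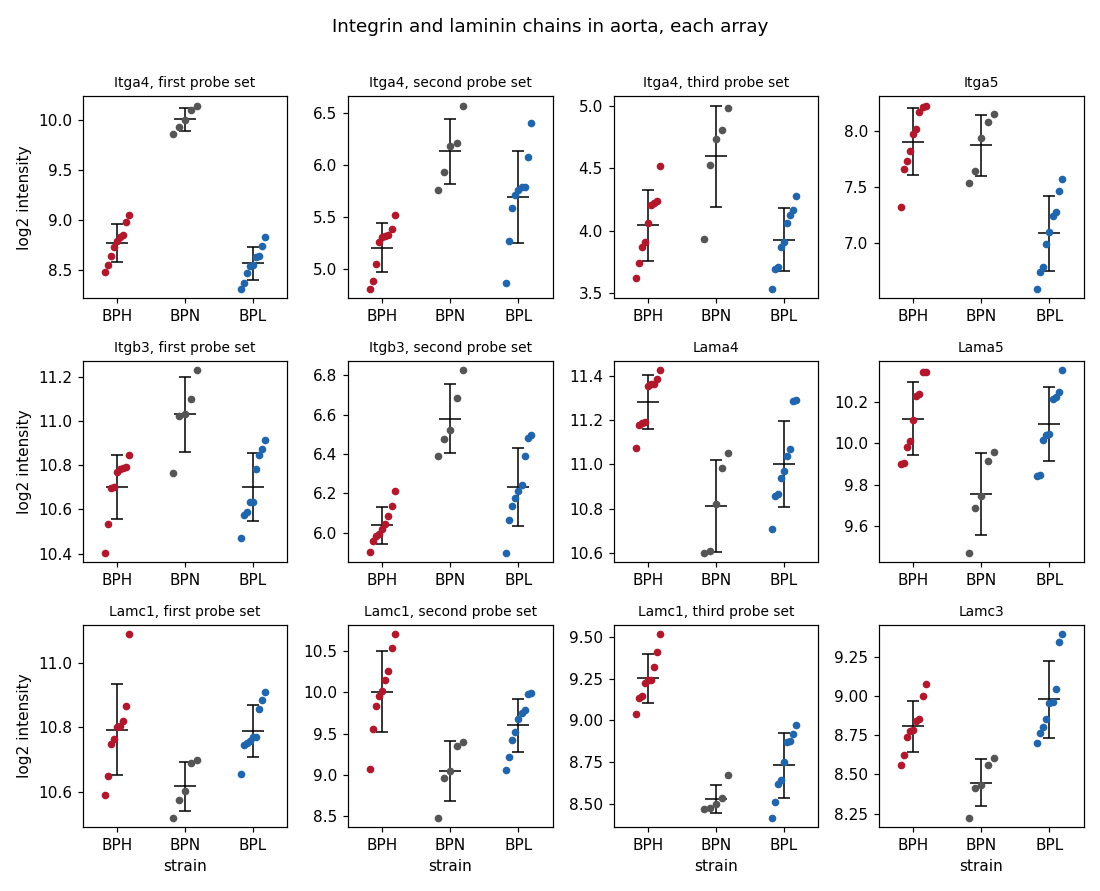
Log2 intensity on each aorta array (y axis) by strain (x axis) for Itga4, Itga5, Itgb3, Lama4, Lama5, Lamc1 and Lamc3; points are arrays, the line and bars mean ± SD. On the first Itga4 probe set every BPH and BPL array is at or below 9.05 and every BPN array at or above 9.85, and on the third Lamc1 probe set BPH stands above the other two strains.

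Among the chains that read the RGD motif, Itga5 and Itgb3 differed in aorta. Itga5, the alpha chain of the classical fibronectin receptor, was lower in BPL alone among the strains. Its first probe set read 7.54, 7.65, 7.94, 8.09 and 8.16 in BPN, 6.59, 7.10 and 7.57 as lowest, median and highest in BPL and 7.32, 7.98 and 8.23 in BPH. BPL was below BPN by 0.79 ± 0.16 (1.73-fold, adjusted p = 0.00165), and BPH was above BPL by 0.82 ± 0.14 (1.77-fold, adjusted p = 0.000126). BPH minus BPN was 0.03 ± 0.16, with a 95% interval from -0.31 to 0.37 (adjusted p = 0.951). The second Itga5 probe set gave the same order, with BPL at 6.76, 6.99 and 7.58 and BPN at 6.96, 7.59, 7.67, 8.01 and 8.25, a fall of 0.62 ± 0.18 (adjusted p = 0.0226, and 0.0832 or 0.105 without BPN 14 or BPN 15). BPH exceeded BPL on it by 0.77 ± 0.15 (adjusted p = 0.000616). Between the same aortas 4 of 5 granulocyte markers (median 1.37) and 2 of 4 platelet markers (median 0.263) were higher in BPH than in BPL. Granulocyte markers averaged 5.93 to 8.253 in BPH, 5.748 to 7.039 in BPN and 5.875 to 6.275 in BPL, and platelet markers 5.81 to 6.46, 5.805 to 6.119 and 5.412 to 5.919, and their part in the Itga5 differences was not tested. Itga5 was not called in heart, kidney or liver.

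Itgb3, the beta chain of the vitronectin and platelet fibrinogen receptors, was lower in both outer strains in aorta. Its first probe set read 10.77, 11.02, 11.03, 11.10 and 11.23 in BPN, 10.40, 10.77 and 10.85 in BPH and 10.47, 10.63 and 10.91 in BPL, so that 1 BPN array overlapped them. The fall was 0.33 ± 0.092 in each (adjusted p = 0.0217 and 0.0197), and BPN 13 and BPN 14 each ended the calls when left out (adjusted p = 0.0642 and 0.0892 for BPH, 0.0586 and 0.082 for BPL). On the second probe set BPN read 6.39, 6.48, 6.52, 6.68 and 6.83 and BPH ran from 5.90 through 6.02 to 6.21, a fall of 0.54 ± 0.094 without overlap (adjusted p = 0.000222). BPL ran from 5.90 through 6.21 to 6.50 on it and was lower by 0.35 ± 0.094 (adjusted p = 0.0157, and 0.0518 or 0.0725 without BPN 14 or BPN 15). In liver the second probe set was higher in both strains, by 0.24 ± 0.072 each (adjusted p = 0.0454 and 0.0455). These calls were ended by 12 and 14 of the 15 arrays (up to 0.118 and 0.124), as they were by the shared spread (0.103 and 0.102). The first Itgb3 probe set gave 0.25 in BPH liver and 0.04 in BPL liver, neither of them called.

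Itga8, the alpha chain that binds nephronectin and osteopontin, was higher in BPH liver. It read 5.19, 5.20, 5.37, 5.46 and 5.48 in BPH, 4.48, 4.65, 4.66, 4.68 and 4.78 in BPN and 4.85, 4.85, 4.86, 4.90 and 4.92 in BPL. The 3 strains formed separate ranges, with BPH above BPN by 0.69 ± 0.073 (1.61-fold, adjusted p = 2.65e-06) and above BPL by 0.46 ± 0.073 (1.38-fold, adjusted p = 0.000294). BPL minus BPN was 0.22 and not called (adjusted p = 0.0721). In aorta the Itga8 differences were -0.10 ± 0.059 in BPH (adjusted p = 0.38) and -0.06 in BPL.

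The beta chains that pair with alpha v differed in heart, kidney and liver. Itgb8, which activates latent TGF-beta, was higher in BPL kidney, at 7.94, 7.98, 8.15 and 8.15 against 7.45, 7.50, 7.59, 7.66 and 7.73 in BPN and 7.42, 7.50, 7.58, 7.71 and 7.76 in BPH. BPL stood above both other strains without overlap, by 0.46 ± 0.085 over BPN (1.38-fold, adjusted p = 0.00211) and by as much over BPH (adjusted p = 0.00227). Without the 3 kidney arrays with adrenal markers the difference from BPN was 0.41 (adjusted p = 0.0547). Itgb6, the epithelial partner of alpha v, was higher in BPL heart (8.10, 8.17, 8.21, 8.26 and 8.38) than in BPH (7.61, 7.73, 7.73, 7.77 and 7.97), without overlap, by 0.46 ± 0.075 (1.37-fold, adjusted p = 0.000462). BPN hearts read 7.82, 7.85, 7.86, 7.87 and 8.11, below BPL by 0.32 ± 0.075 (1.25-fold, adjusted p = 0.0106, and 0.127 with the spread shared by 12 groups). Itgb5, a vitronectin receptor chain, read 7.84, 7.90, 7.96, 8.01 and 8.08 in BPL liver, 7.70, 7.73, 7.73, 7.75 and 7.78 in BPN and 7.57, 7.58, 7.62, 7.62 and 7.63 in BPH. BPL exceeded BPN by 0.22 ± 0.058 (adjusted p = 0.0232, ended without BPL 2, BPL 3 or BPN 4 at 0.0707, 0.0514 and 0.0561, and by the shared spread at 0.254) and BPH by 0.36 ± 0.058 (adjusted p = 0.000479).

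In kidney Itgb5 was higher in BPH (8.90, 8.90, 8.92, 8.93 and 9.03) than in BPN (8.64, 8.73, 8.75, 8.77 and 8.81) by 0.20 ± 0.055. That call passed narrowly (adjusted p = 0.04) and 11 of 14 arrays ended it (up to 0.103), as did the shared spread (0.419). Itgav, the common alpha v partner of these chains, and Itga2b, the platelet alpha chain, were not called in any comparison.

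Itgb1, the beta chain shared by most of the matrix receptors above, was called once, in BPH liver. It read 8.28, 8.38, 8.46, 8.55 and 8.59 there, 8.60, 8.73, 8.73, 8.79 and 8.86 in BPN and 8.47, 8.53, 8.54, 8.55 and 8.57 in BPL. BPH lay below BPN without overlap, by 0.29 ± 0.070 (adjusted p = 0.0142, at most 0.0453 with any 1 array left out), and BPL by a difference of -0.21 that was not called (adjusted p = 0.0842). In aorta its partner Itga4 was lower in both outer strains and its partner Itga5 in BPL only. Itgb1 ran there from 12.20 through 12.30 to 12.51 in BPH and from 11.94 through 12.20 to 12.53 in BPL, beside 12.30, 12.33, 12.37, 12.38 and 12.67 in BPN. Its BPH difference there was -0.08 ± 0.090 with an interval from -0.26 to 0.11 (adjusted p = 0.717), and the BPL difference -0.15 (adjusted p = 0.358).

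Of the leucocyte integrins, Itgal, the alpha chain of the lymphocyte receptor for Icam1 and Icam2, was lower in the liver and kidney of both outer strains. On its first probe set BPN livers read 6.46, 6.49, 6.53, 6.78 and 6.80, BPH livers 5.92, 5.93, 6.08, 6.18 and 6.21 and BPL livers 5.90, 6.08, 6.15, 6.21 and 6.35. Neither outer strain overlapped BPN, and the falls were 0.55 ± 0.094 in BPH (1.46-fold, adjusted p = 0.000786) and 0.47 ± 0.094 in BPL (1.39-fold, adjusted p = 0.00279). With the spread shared by 12 groups they were not called (adjusted p = 0.115 and 0.22). The second probe set was lower in BPH liver too, at 4.77, 4.84, 4.87, 4.91 and 5.00 against 5.04, 5.06, 5.12, 5.22 and 5.29, by 0.27 ± 0.071 (adjusted p = 0.0236), and BPH 1, BPH 5, BPN 2 and BPN 5 each ended that call (adjusted p = 0.07, 0.0538, 0.0607 and 0.058).

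In kidney the first Itgal probe set read 5.04, 5.41, 5.48, 5.55 and 5.58 in BPN, 4.88, 4.91, 4.93, 4.97 and 5.13 in BPH and 4.81, 5.00, 5.05 and 5.15 in BPL. The lowest BPN array overlapped both strains, and the falls were 0.45 ± 0.098 in BPH (adjusted p = 0.00754) and 0.41 ± 0.10 in BPL (adjusted p = 0.0237). BPL 1 and 4 and BPN 1, 2 and 4 each ended the BPL call (adjusted p = 0.0577, 0.0882, 0.0625, 0.0597 and 0.0506), and the shared spread ended both (adjusted p = 0.3 and 0.445). The second Itgal probe set showed no such fall in BPH kidney, with a difference of 0.03 (adjusted p = 0.913), and -0.21 in BPL (adjusted p = 0.241). Macrophage markers were lower in the same tissues, 6 of 7 in BPH and 5 of 7 in BPL liver, and 4 of 7 in BPH and 0 of 7 in BPL kidney. Their mean ran from 6.215 to 6.522 in BPH, 6.465 to 6.572 in BPL and 6.763 to 6.926 in BPN liver, and from 5.529 to 5.709, 5.854 to 6.345 and 5.985 to 6.333 in kidney. T and B cell markers were lower for 1 of 7 in BPH liver and 2 of 7 in BPH kidney. The part of these cells in the Itgal differences was not tested. Itgam, the myeloid alpha chain outside the member rule, was not called in any of the 12 comparisons.

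Of the remaining leucocyte chains, Itgae and Itgax each had 1 call, and Itgad, Itgb7 and Itgb2l had none in any comparison. Itgae, the alpha chain of the T cell receptor for E-cadherin, was higher in BPH liver (3.85, 3.86, 3.94, 4.20 and 4.21) than in BPL liver (3.46, 3.56, 3.70, 3.71 and 3.81), without overlap, by 0.36 ± 0.086 (adjusted p = 0.0137, and 0.105 with the shared spread). The second Itgae probe set gave 0.046 there and was not called. Itgax, the CD11c chain of dendritic cells, was lower in BPL aorta, at 4.34, 4.90 and 5.31 as lowest, median and highest against 4.94, 5.31, 5.54, 5.55 and 6.21 in BPN. That fall of 0.66 ± 0.21 (adjusted p = 0.0441) was ended by 13 of 23 arrays (up to 0.187). In heart no leucocyte integrin gene was called, while 4 of 7 macrophage markers were lower in BPH and 6 of 7 in BPL, with means of 7.348 to 7.481 and 7.362 to 7.409 beside 7.695 to 8.206 in BPN.

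**Figure D4:**
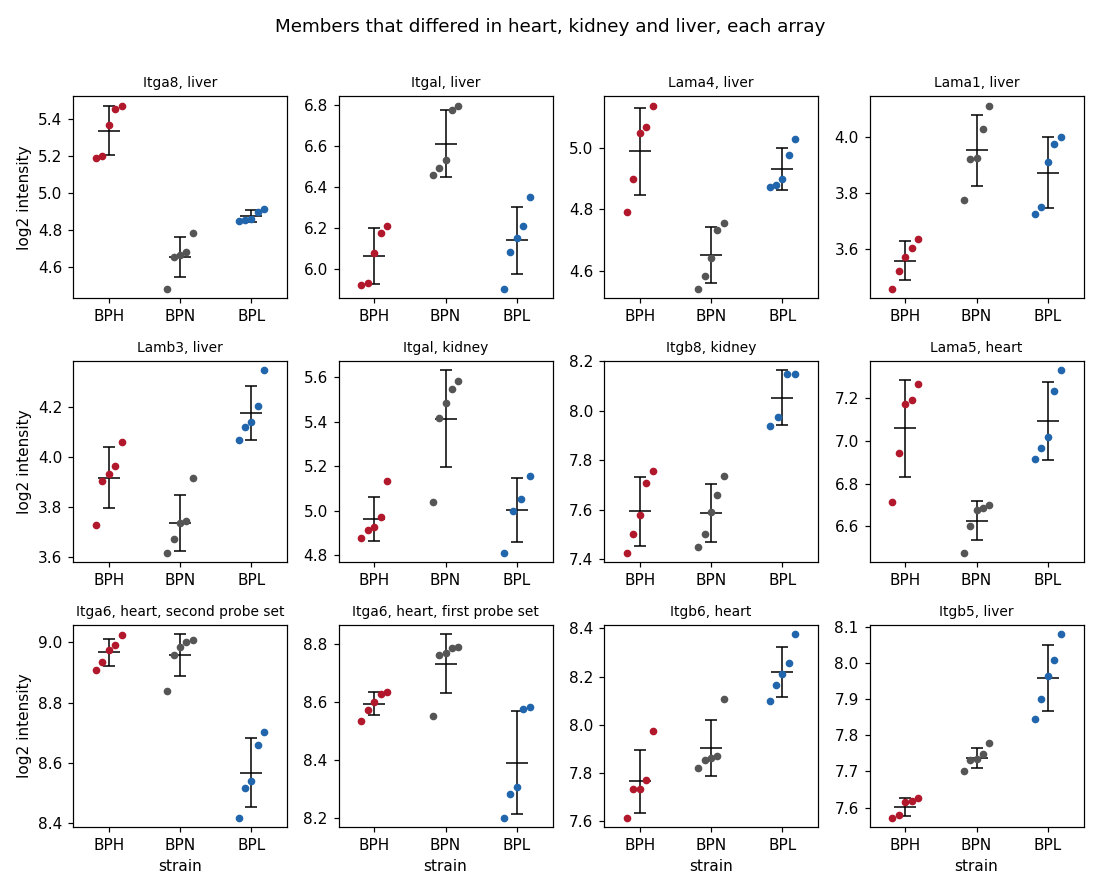
Log2 intensity on each array (y axis) by strain (x axis) for members that differed in liver (Itga8, Itgal, Lama4, Lama1, Lamb3, Itgb5), kidney (Itgal, Itgb8) and heart (Lama5, Itga6, Itgb6); points are arrays, the line and bars mean ± SD. Itga8 in liver forms separate ranges by strain, and BPL alone is low on the second Itga6 probe set in heart and high for Itgb8 in kidney. Itgb6 in heart is highest in BPL, which overlaps BPN.

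Among the proteins named after an integrin tail, Itgb3bp gave the largest difference of all members. Itgb3bp, a centromere protein that was first found through its binding to the beta 3 tail, was lower in BPH in all 4 tissues on the first of its 2 probe sets. In liver this probe set read 2.81, 2.98, 3.00, 3.29 and 3.32 in BPH, 5.19, 5.35, 5.36, 5.44 and 5.47 in BPN and 5.23, 5.35, 5.44, 5.54 and 5.59 in BPL. BPH was lower than BPN by 2.28 ± 0.098 (4.86-fold, adjusted p = 7.44e-12) and than BPL by 2.35 ± 0.098 (5.09-fold, adjusted p = 3.62e-12). In aorta the fall against BPN was 1.5 ± 0.11 (2.82-fold, adjusted p = 1.11e-10), from 8.38, 8.66, 8.71, 8.72 and 8.78 to 6.88, 7.17 and 7.54 as lowest, median and highest. In heart BPH read 4.74, 5.08, 5.44, 5.50 and 5.52 and BPN 6.38, 6.58, 6.60, 6.71 and 6.78, a fall of 1.35 ± 0.13 (2.55-fold, adjusted p = 1.02e-06). BPH and BPN did not overlap in these 3 tissues, and BPL lay near BPN, with an aorta difference of -0.12 (adjusted p = 0.604).

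In kidney the Itgb3bp fall was smaller and less firm. BPH read 5.58, 5.83, 6.05, 6.08 and 6.16, BPN 5.99, 6.58, 6.60, 6.63 and 6.67 and BPL 6.69, 6.86, 6.86 and 7.02. BPH was below BPN by 0.55 ± 0.13 (adjusted p = 0.0138, and 0.11 without the 3 arrays with adrenal markers) and below BPL by 0.92 ± 0.14 (1.89-fold, adjusted p = 0.000358). The second Itgb3bp probe set fell by 1.48 ± 0.16 in BPH aorta (adjusted p = 2.84e-07) and by 0.28 ± 0.078 in BPH liver (adjusted p = 0.0329, ended by 5 of 15 arrays, up to 0.0963, and by the joint fit, 0.255), and was not called in heart (-0.16, adjusted p = 0.173) or kidney (-0.13). Some of the genes next to Itgb3bp in the RefSeq order were higher in BPH where it was lower. Alg6, an enzyme of N-glycosylation, differed by 0.55 in kidney, 0.54 in heart and 0.46 in aorta, all called, and by 0.37 in liver, not called. Pgm1 differed by 0.48 in aorta and 0.50 in kidney, called, and by 0.16 in heart and 0.18 in liver, not called. The other genes near Itgb3bp are not given here, and the part of the region in its differences was not tested.

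Itgb1bp1, which binds the beta 1 tail and restrains integrin activation, was higher in BPH in heart, kidney and liver on the first of its 2 probe sets. Livers read 4.46, 4.47, 4.52, 4.67 and 4.78 in BPH, 3.89, 4.0, 4.02, 4.05 and 4.07 in BPN and 3.86, 3.92, 4.01, 4.05 and 4.14 in BPL. Kidneys read 6.16, 6.26, 6.29, 6.34 and 6.45 in BPH and 5.73, 5.78, 5.81, 5.83 and 5.92 in BPN, and hearts 5.55, 5.58, 5.68, 5.73 and 5.83 in BPH and 5.33, 5.35, 5.38, 5.39 and 5.42 in BPN. No BPH array overlapped BPN in these tissues. The differences were 0.57 ± 0.075 in liver (1.49-fold, adjusted p = 4.42e-05), 0.49 ± 0.068 in kidney (adjusted p = 0.000154) and 0.30 ± 0.063 in heart (adjusted p = 0.00491), and BPH exceeded BPL as well, by 0.58, 0.43 and 0.37. In aorta, where BPN read 8.18 to 8.38 and BPH 7.96 to 8.38, the difference of -0.07 was not called (adjusted p = 0.681), and the second probe set gave differences of -0.11 in liver (adjusted p = 0.749), 0.0044 in kidney and -0.24 in heart, none of them called. Its neighbour Iah1, a lipid esterase, was higher in BPH in all 4 tissues, by 1.74 in liver, 1.12 in kidney, 1.53 in heart and 1.39 in aorta. The other genes near Itgb1bp1 are not given here, and the part of the region in its differences was not tested. Itgb1bp2 (melusin, a muscle protein that binds the beta 1 tail) was not called in any comparison.

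**Figure D5:**
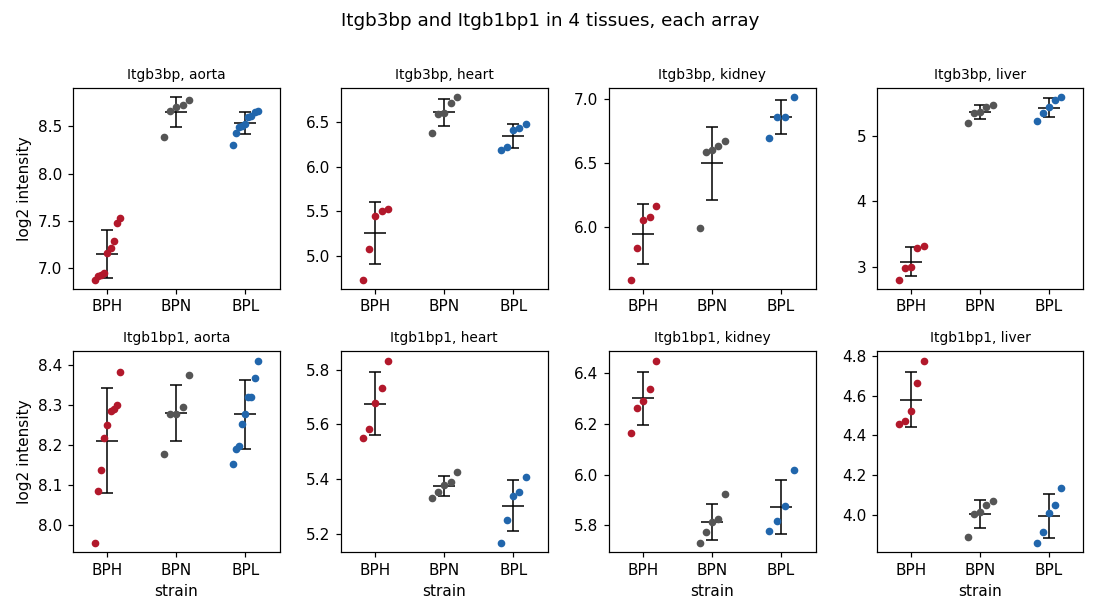
Log2 intensity on each array (y axis) by strain (x axis) for Itgb3bp (upper row) and Itgb1bp1 (lower row) in 4 tissues; points are arrays, the line and bars mean ± SD. Itgb3bp is low in BPH, farthest in liver (2.81 to 3.32 against 5.19 to 5.47 in BPN), and Itgb1bp1 is high in BPH in heart, kidney and liver but not in aorta.

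Whether a strain difference itself depended on tissue was tested in 1 fit over heart, kidney and liver, whose labelling chemistry was shared. For BPH minus BPN 6 of 54 member probe sets passed (8.83% of the array did), and for BPL minus BPN 6 (11.1% of the array). The member shares were thus near those of the array. With the spread shared by all 12 groups, 3 passed for BPH and 0 for BPL. Itga8 differed from BPN in BPH by -0.12 in heart, 0.01 in kidney and 0.69 in liver (adjusted p = 0.00264). Lama4 differed by 0.01, -0.27 and 0.34 in the same order (adjusted p = 0.0196) and Lama1 by -0.06, 0.14 and -0.39 (adjusted p = 0.0132). The estimates of each chain thus had opposite signs in kidney and in liver, but neither kidney difference from BPN was itself called. Itgb8 in BPL differed by 0.09, 0.46 and -0.04 (adjusted p = 0.00755), and the first Lamb1 probe set by -0.17, 0.22 and 0.15 (adjusted p = 0.0177). The aorta, prepared with another labelling kit, was not in this fit, so that the Itga4, Itga5 and Lamc1 differences were not tested against those of other tissues.

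The intracellular partners of the integrins were counted beside all named genes. Of 22 measured genes of the adhesion machinery, which link beta tails to actin, none was called in aorta in either strain (3 below an unadjusted p of 0.05 in each), where 11.5% and 12.9% of all named genes were. Of the list, 9.09% was called in heart in each strain (8.45% and 11.3% of all named genes), 4.55% and 9.09% in kidney for BPH and BPL (8.62% and 7.71%), and 9.09% and 13.6% in liver (9.14% and 9.45%). In heart 2 were lower in each strain and none was higher, with Pxn (paxillin, an adaptor) lower by 0.23 ± 0.054 in BPH (adjusted p = 0.0135) and by 0.26 ± 0.054 in BPL (adjusted p = 0.00374). Vcl (vinculin) was the other in BPH, lower by 0.20 ± 0.051 (adjusted p = 0.0227), and Fermt3 (kindlin of blood cells) the other in BPL, lower by 0.36 ± 0.087 (adjusted p = 0.0125). In kidney 1 was higher in BPH, the tensin Tns3 by 0.33 ± 0.062 (adjusted p = 0.00271), and 1 higher and 1 lower in BPL. In liver 1 was higher and 1 lower in BPH and 2 higher and 1 lower in BPL, among them Bcar1, the scaffold p130Cas, by 0.38 ± 0.073 (adjusted p = 0.00228).

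Other integrin ligands differed beside their receptors in aorta. Of 15 measured, 1 was higher and 2 lower in BPH aorta (20% beside 11.5% of all named genes) and 4 lower in BPL aorta (26.7% beside 12.9%). Fn1, fibronectin, the ligand of the Itga5 and Itga4 chains, was lower by 0.33 ± 0.062 in BPH (adjusted p = 0.000652) and by 0.47 ± 0.062 in BPL (adjusted p = 5.9e-06). Thbs1, thrombospondin, was lower by 2.38 ± 0.23 in BPH (adjusted p = 2.3e-08) and by 3.67 ± 0.23 in BPL (adjusted p = 6.08e-12). Vcam1, the cell-bound ligand of the alpha 4 chain, was higher in BPH aorta by 0.41 ± 0.096 (adjusted p = 0.00574), the direction opposite to Itga4. Tnc, tenascin-C, was lower in BPL aorta by 0.49 ± 0.089 (adjusted p = 0.000352). In kidney 1 ligand was higher and 1 lower in BPH (13.3% beside 8.62%) and 3 higher and 3 lower in BPL (40% beside 7.71%), where Vcam1 was higher by 0.63 ± 0.12 (adjusted p = 0.00365) and Cdh1, the E-cadherin that Itgae binds, by 0.55 ± 0.064 (adjusted p = 2.51e-05). In heart 1 was lower in BPH (6.67% beside 8.45%) and 2 in BPL (13.3% beside 11.3%), near the shares of all named genes. In liver 1 was higher and 3 lower in BPH (26.7% beside 9.14%) and 1 higher in BPL (6.67% beside 9.45%), which was Cdh1, by 0.73 ± 0.070 (adjusted p = 7.69e-07).

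Of 11 other basement membrane genes, 1 was higher in BPH aorta (9.09% beside 11.5% of all named genes), and 1 higher and 2 lower in BPL aorta (27.3% beside 12.9%). Agrn (agrin, which binds laminins) was the higher one in both, by 0.25 ± 0.071 (adjusted p = 0.0248) and 0.23 ± 0.071 (adjusted p = 0.0389), beside the higher Lama5 of the same aortas. Nid1 (nidogen, which joins laminin to collagen IV) was lower in BPL aorta by 0.34 ± 0.083 (adjusted p = 0.00632), and Col18a1 by 0.73 ± 0.18 (adjusted p = 0.0082). BPH exceeded BPL in aorta for 5 of the 11 and was lower for none (45.5% beside 13%): Nid2, Col4a1, Col18a1, Bcam and Ntn4, by 0.53, 0.18, 0.76, 0.40 and 0.67. In liver 3 were higher in BPH and none lower (27.3% beside 9.14%), with Sparc, a collagen-binding matrix protein, higher by 1.07 ± 0.086 (adjusted p = 7.13e-08). In kidney none was called in BPH (0 below an unadjusted p of 0.05), and in BPL 1 was higher and 1 lower (18.2% beside 7.71%). In heart 1 was higher in BPH and 1 lower in BPL (9.09% in each, beside 8.45% and 11.3%), and in BPL liver 1 was higher (9.09% beside 9.45%).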

How the data were processed

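Intensities of 67 single-colour arrays were deposited by the authors after RMA, per the submitters' processing notes, on a linear scale from 1.8 to 22648. No batch, scan date or detection call was given in the sources used here, and arrays carry no read depth, so their number limits the precision. The deposited values were taken as log2 with a pseudocount of 0. Each tissue was fitted alone with limma 3.58.1 in R 4.3.3 over all 38385 probe sets and 3 strains, followed by eBayes and Benjamini-Hochberg adjustment, and probe sets below 0.05 were called. Dependence on tissue was tested with an F test in 1 fit of heart, kidney and liver. Genes were named from the platform annotation, in which 24478 probe sets had 1 symbol, 65 several and 13842 were not listed, and all 36 member genes matched RefSeq by their Entrez number. Every column was mapped to a sample.

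The members and lists were chosen with earlier results of these data known. All members were tested and any may be named, with array values for those called, and genes of the other lists were named where called. The fit was tested on simulated data with 100 changed probe sets a size. It recovered, for BPH minus BPN at log2 changes of 0.5 and 1, 82% and 98% in liver, 70% and 97% in kidney, 80% and 98% in heart and 48% and 93% in aorta. In the data far more probe sets were called in this comparison (2739 in liver, 2706 in kidney, 2695 in heart and 3513 in aorta). The simulated noise was also independent between probe sets. The cut-off after adjustment, and with it the recovery, can therefore differ in the data. Alternatives covered the pseudocount, low values, array weights, variance trend, normalization, centring, strains fitted, probe set choice, the replicate block, a joint fit of 12 groups, single arrays left out and, chosen after seeing the data, arrays with markers of another tissue left out.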

Additional observations from a re-analysis of the deposited data

Results flagged for a closer look

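Among 146 groups of 4 to 10 arrays, 9 held an array whose distance from its nearest neighbour exceeded Dixon's 95% critical value, and chance gives about 1 in 20. In heart, BPN 4 was high for Itga1 (7.46, nearest 7.25) and Itgb6 (8.11, nearest 7.87), and BPN 2 was low for Itga6 on both probe sets (8.84, nearest 8.96, and 8.55, nearest 8.76). BPL 5 was high for Itga1 in heart (7.20, nearest 6.98) and for the second Itgb3 probe set in liver (4.15, nearest 3.90). In kidney, BPN 2 was low for Itgb3bp (5.99, nearest 6.58) and BPH 3 high for Itgb5 (9.03, nearest 8.93). In aorta, BPH 5 was low for the third Itga9 probe set (9.27, nearest 9.64), and this array also stood apart for cardiomyocyte markers.

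Differences from BPN that varied between heart, kidney and liver passed the interaction test for 12 probe sets. These were 6 in each strain, near the shares of the array (8.83% for BPH and 11.1% for BPL). In BPH these were Itgb3bp (adjusted p = 3.89e-09), Itga8 (0.00264), Itgb5 (0.011), Lama1 (0.0132), Lama4 (0.0196) and the first Itga1 probe set (0.0424). Itgb5 differed by 0.04 in heart, 0.20 in kidney and -0.14 in liver, and Itga1 by -0.18, -0.54 and -0.57. In BPL they were Itgb8 (0.00755), the first and second Lamb1 probe sets (0.0177 and 0.0311), the second Itga6 probe set (0.0186), the second Itgb3 probe set (0.0271) and Lamb3 (0.0345). Itga6 differed by -0.39 in heart, 0.05 in kidney and -0.11 in liver, Itgb3 by -0.05, -0.17 and 0.24, and Lamb3 by 0.26, -0.08 and 0.44.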

How the results depend on the processing

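Of the 90 member calls between strains, 90 held with a pseudocount of 16 and with low probe sets left out, 88 with array weights, 88 with a variance trend, 86 after quantile normalization, 84 after centring, 74 with only the 2 strains compared and 64 in the joint fit of 12 groups. In the counts below, 1 probe set a gene means the one of highest mean in that tissue, fitted and adjusted over such probe sets alone. The counts given earlier took the representative probe set from the fit of all probe sets, so the numbers can differ. Counts of called member probe sets that moved were these. In BPH aorta 15 became 8 with 1 probe set a gene and 24 in the joint fit. In BPL aorta 9 became 16 in the joint fit and 5 without the arrays with markers of another tissue, an alternative chosen after seeing the data, and for BPH minus BPL 9 became 5 with 1 probe set a gene and 17 in the joint fit. In BPH heart 4 became 7 with the pseudocount of 16 and 7 with the variance trend, and in BPL heart 7 became 2 in the joint fit. In BPL kidney 4 became 2 with only 2 strains, 2 in the joint fit and 2 with the replicate block. In BPH liver 12 became 7 with 1 probe set a gene and 6 in the joint fit, and in BPL liver 8 became 4 with only 2 strains and 3 in the joint fit. The 6 interactions of BPH became 3 and the 6 of BPL 0 in the joint fit, and 3 for BPL without the arrays with markers of another tissue. With 1 array left out, the counts ranged in aorta over 10 to 16, 5 to 9 and 6 to 11 for BPH minus BPN, BPL minus BPN and BPH minus BPL, in heart over 4 to 5, 5 to 8 and 5 to 9, in kidney over 4 to 6, 2 to 5 and 3 to 4, in liver over 9 to 13, 4 to 8 and 5 to 8, and for the interactions over 5 to 8 and 3 to 7. When the probe set of highest mean in the tissue stood for the gene, Itgal in BPH kidney reversed to 0.033 (adjusted p = 0.913) and Itgb1bp1 in BPH liver to -0.11 (adjusted p = 0.749). To see whether equal replicate numbers paired arrays, the mean of each strain was subtracted from each probe set within a tissue. What remained correlated between same-numbered arrays of different strains over the range -0.262 to 0.194 in heart (4 of 15 pairs over 0.1). The range was -0.285 to 0.278 in kidney (1 of 13) and -0.145 to 0.27 in liver (3 of 15). The numbers were therefore not taken to pair the arrays. In these tissues the replicate block kept 49 calls and ended 8, and did not move any other count by more than 1.5 times. For the aorta alone, no paired analysis was possible because BPH and BPN share only the number 11 there. The cause of these changes was not tested.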
